A study of Homo sapiens with 11 samples.

Results

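The 10 genes studied, of fatty acid synthesis, elongation, desaturation and activation, were followed in 769-P cells, an established human clear-cell renal carcinoma line. They were ACLY, FASN, SCD, ELOVL1, ELOVL5, ELOVL6, FADS1, FADS2, ACSL3 and ACSL4, and all 10 were found among the 33080 genes of the deposited tables. They were chosen by symbol with earlier results of these data known, so counts of them set against all genes are descriptions only. The cells had been transfected with an siRNA by lipid reagent for 48 h, labelled at 20 µM, and total RNA was sequenced in 11 libraries. One siRNA against AKR1A1, an aldo-keto reductase, is called si2 (n = 4 libraries), another is called si1 (n = 3), and the control siRNA is called siSCR (n = 4). The labels give si2 and si1 libraries the genotype AKR1A1-/- and siSCR libraries wild-type, although the treatment given is a transient transfection. The labels do not say that replicates came from separate cultures, and p-values then cover the spread of these samples alone, which may be technical. No untransfected cells are among the samples used here.

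Fatty acid synthesis begins with cytosolic acetyl-CoA, which ACLY cleaves from citrate, and FASN joins acetyl and malonyl units into palmitate. ELOVL enzymes then lengthen acyl chains in the endoplasmic reticulum, and the desaturases SCD, FADS1 and FADS2 insert cis unsaturated bonds, SCD into saturated chains and the FADS enzymes into polyunsaturated ones. ACSL enzymes join free fatty acids to CoA, without which the acids enter neither lipids nor oxidation. Many genes of the pathway are known targets of the SREBP transcription factors, whose release from the endoplasmic reticulum is held back by INSIG proteins. Clear-cell renal carcinoma is named for cells rich in stored lipid and glycogen.

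Libraries held 2108546 to 5939514 reads on genes. Mitochondrially encoded genes took 4.59% to 5.12% of the reads of si2 libraries, 6.57% to 11.1% of si1 libraries and 3.46% to 4.46% of siSCR 2 to 4, but 12.1% of siSCR 1. When every library was thinned to 2108546 reads, si1 2 kept 11609 genes with a read and the other 10 kept 13080 to 13617. Where a call of one of the 10 genes against siSCR changed when either library was left out, the value is given with the gene. AKR1A1 stood at 56.6, 32.1, 48.3 and 46.1 normalized counts in si2 1 to 4 and at 81.7, 23.6 and 45.1 in si1 1 to 3, against 390, 256, 200 and 242 in siSCR 1 to 4. The log2 fold change came to -2.53 (SE 0.24; limma adjusted p = 0.00218) for si2 and -2.54 (SE 0.42; limma adjusted p = 0.0357) for si1. With 1 library left out, AKR1A1 passed in all 8 fits for si2 and, for si1, without siSCR 1 but not without any of the other 6 (limma adjusted p 0.0210 to 0.126). In those 6 fits 0 to 0.0372% of all genes tested passed. Over all 7 fits the log2 fold change of AKR1A1 for si1 was -2.98 to -2.10. Of 8 marker genes of renal carcinoma lines, 6 had a normalized count of at least 10 in every library, whereas CA9 was at 0 in all. All 4 endothelial markers were at 0 in all libraries, and of the adipocyte markers ADIPOQ, PLIN1 and LEP were. The remaining adipocyte marker, CIDEC, had 0 to 8.03 in si2, 6.15 to 13.9 in si1 and 3.92 to 10.2 in siSCR. Leukocyte markers summed to 35.7 to 88.4 in si2, 33.1 to 86.1 in si1 and 58.1 to 113 in siSCR, with CD3E at 0, and fibroblast markers to 38.9 to 61.0 in si2, 12.3 to 30.5 in si1 and 25.5 to 52.3 in siSCR, with COL1A2 and LUM at 0. In each of these lists 4 of 5 markers were below 10 in every library. The remaining ones, CD68 among leukocyte and COL1A1 among fibroblast markers, made up most of each sum. The part of these markers in the results was not tested.

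The promoters of the 4 genes that passed the test in at least 1 comparison are shown because these genes carried the calls, ACLY and SCD higher and ACSL4 lower in si2 than in siSCR, and SCD and ACSL3 higher and ACSL4 lower in si2 than in si1. Each sequence is the RefSeq window on GRCh38.p14 from 250 bases before the annotated start to 50 bases after it, read 5′ to 3′ on the gene's strand. Capitals mark the CCAAT box of NF-Y, the sterol regulatory element-like letters TCANNCCAC and the E-box CACGTG, each searched on both strands. The windows are chr17:41918973-41919272 on the minus strand for ACLY, chr10:100346983-100347282 on the plus strand for SCD, chr2:222860786-222861085 on the plus strand for ACSL3 and chrX:109733208-109733507 on the minus strand for ACSL4.
ACLY: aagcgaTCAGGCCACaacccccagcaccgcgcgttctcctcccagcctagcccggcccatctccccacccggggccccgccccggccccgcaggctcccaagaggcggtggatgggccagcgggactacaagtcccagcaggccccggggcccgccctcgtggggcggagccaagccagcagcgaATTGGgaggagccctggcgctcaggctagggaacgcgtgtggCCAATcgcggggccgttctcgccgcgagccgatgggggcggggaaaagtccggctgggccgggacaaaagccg
SCD: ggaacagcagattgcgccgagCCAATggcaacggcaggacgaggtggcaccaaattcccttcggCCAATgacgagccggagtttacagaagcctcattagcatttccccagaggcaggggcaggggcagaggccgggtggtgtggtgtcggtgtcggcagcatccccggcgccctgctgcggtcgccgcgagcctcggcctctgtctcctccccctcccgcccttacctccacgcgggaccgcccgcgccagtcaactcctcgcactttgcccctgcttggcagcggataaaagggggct
ACSL3: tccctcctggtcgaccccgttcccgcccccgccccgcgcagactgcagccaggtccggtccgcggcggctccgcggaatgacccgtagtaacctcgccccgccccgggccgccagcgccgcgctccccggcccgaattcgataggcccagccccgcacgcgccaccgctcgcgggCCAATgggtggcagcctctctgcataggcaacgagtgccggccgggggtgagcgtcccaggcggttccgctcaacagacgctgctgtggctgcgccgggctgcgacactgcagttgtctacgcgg
ACSL4: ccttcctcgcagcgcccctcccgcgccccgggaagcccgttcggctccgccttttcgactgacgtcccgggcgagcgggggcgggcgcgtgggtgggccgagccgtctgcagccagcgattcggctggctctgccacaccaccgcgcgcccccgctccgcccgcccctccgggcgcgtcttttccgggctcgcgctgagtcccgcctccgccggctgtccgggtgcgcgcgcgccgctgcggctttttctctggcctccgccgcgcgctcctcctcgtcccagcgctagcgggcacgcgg

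The CCAAT box (ATTGG on the other strand), to which NF-Y binds beside SREBP at many lipid gene promoters, was in the ACLY window 65 and 23 bases upstream of the start, in that of SCD 229 and 186 bases upstream and in that of ACSL3 75 bases upstream. The ACSL4 window held no CCAAT box, no E-box and no TCANNCCAC. ACLY also held TCAGGCCAC 244 bases upstream, and its other listed start has the same CCAAT boxes 136 and 94 bases upstream. Among the members not printed, ELOVL5 had CCAAT boxes 122 and 68 bases upstream, TCAGCCCAC 37 bases upstream and CACGTG 211 bases upstream, and ELOVL1 had a CCAAT box 65 bases upstream that overlaps a GC box. Taking the first listed start of each gene, 5 of 9 members held CCAAT, against 34.6% of 35116 promoter windows, 2 held TCANNCCAC, against 3.82%, and 1 held CACGTG, against 7.26%. The GC box GGGCGG of Sp1 was in 7 of the 9, ACSL4 included, against 45.0% of windows. FASN has no entry in the table. A match describes letters only.

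Set on one scale per kb of annotated exon, ACLY had the highest level of the 10 genes in every group, at 308 normalized counts per kb in si2, 307 in si1 and 175 in siSCR (means). SCD (169 per kb) and then ACSL3 (101) came next in si2, and FASN (117) and then ELOVL1 (102) in si1. In siSCR it was followed by ELOVL1 at 103 ± 9.49 (SD, n = 4), SCD at 74.0 ± 19.0, ACSL3 at 69.2 ± 4.11 and FASN at 68.0 ± 1.95. SCD, ACSL3 and FASN did not differ beyond their spread. ELOVL5 at 51.4 ± 6.51 and FADS1 at 41.3 ± 14.3 likewise lay within each other's spread, and ACSL4 stood at 27.5 ± 3.55. ELOVL6 at 3.22 ± 1.12 and FADS2 at 1.68 ± 0.545 were far lower, so their values rest on few reads (14 to 34 per library for ELOVL6 and 8 to 35 for FADS2). Lengths are the union of all annotated exons, 10230 and 11026 bases for FADS1 and FADS2, which understates genes with many alternative exons.

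**Figure D1:**
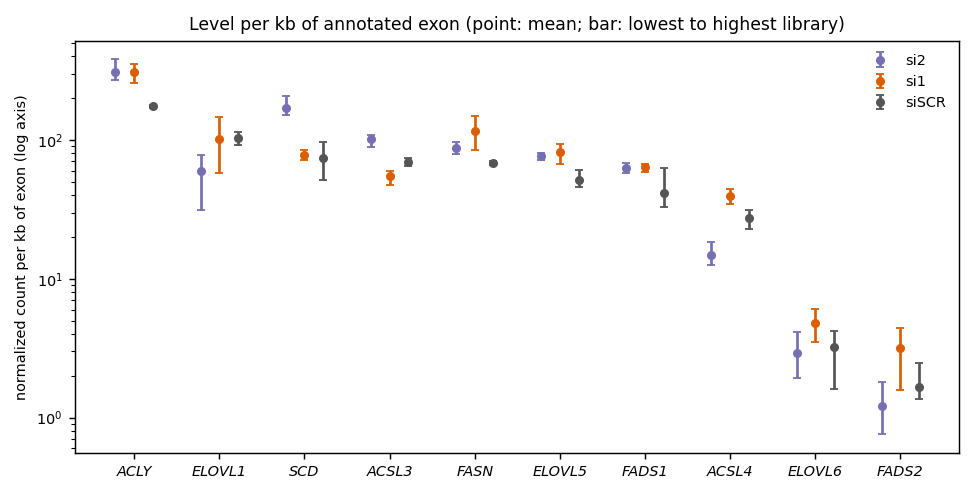
Normalized count per kb of annotated exon (log axis) for the 10 genes, ordered by siSCR; points are means over si2 (n = 4), si1 (n = 3) and siSCR (n = 4), and bars run from the lowest to the highest library. ACLY is highest in every group, ELOVL6 and FADS2 lie far below the rest, and SCD, ACSL3 and ACSL4 separate si2 from si1.

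The comparison of si2 with siSCR asks which of these transcripts differ once AKR1A1 is lowered by si2. In si2, ACLY and SCD rose and ACSL4 fell, and the other 7 did not pass the test at a limma adjusted p under 0.05. Over all 10249 genes tested, 3.12% were called, 1.93% higher and 1.19% lower. The fold changes of the 10 had a median of 0.45 on the log2 scale, with 6 positive, against a median of -0.01 over all genes. Every si2 library lay above every siSCR library in ACLY, FASN, SCD, ELOVL5 and ACSL3 and below in ELOVL1 and ACSL4, which is 7 of 10, against 12.6% of all genes tested (7.09% above and 5.5% below). At an unadjusted p under 0.05 limma had 8 of the 10, against 19.6% of all genes. Because the 10 were chosen with earlier results of these data known, these shares are descriptions and not tests. In bulk RNA, a smaller share of cells with a transcript and less of it per cell cannot be told apart.

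The comparison of si1 with siSCR asks the same of si1. None of the 10 passed the test, against 1.72% of the 10517 genes tested (0.789% higher and 0.932% lower), and 5 had an unadjusted limma p under 0.05, against 23.9% of all genes. Fold changes had a median of 0.63 on the log2 scale, with 8 of 10 positive, against a median of -0.03 over all genes. Every si1 library lay above every siSCR library in ACLY, FASN, ELOVL5 and ACSL4 and below in ACSL3, which is 5 of 10, against 21.7% of all genes (10.8% above and 10.9% below). The siRNA comparisons share the siSCR libraries, so their values are not independent of each other.

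The siRNAs were also set against each other, with no control library involved. SCD and ACSL3 were higher and ACSL4 lower in si2 than in si1, and the other 7 were not called. Over all 10448 genes tested, 6.74% were called, 3.71% higher and 3.02% lower in si2. The same 3 of 10 had every library of si2 apart from every library of si1, a share near the 25% of all genes (13.4% above and 11.6% below). At an unadjusted p under 0.05 limma had 5 of the 10, against 25.4%. AKR1A1 itself had a log2 difference of 0.01 between the siRNAs (95% interval -0.89 to 0.92).

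**Figure D2:**
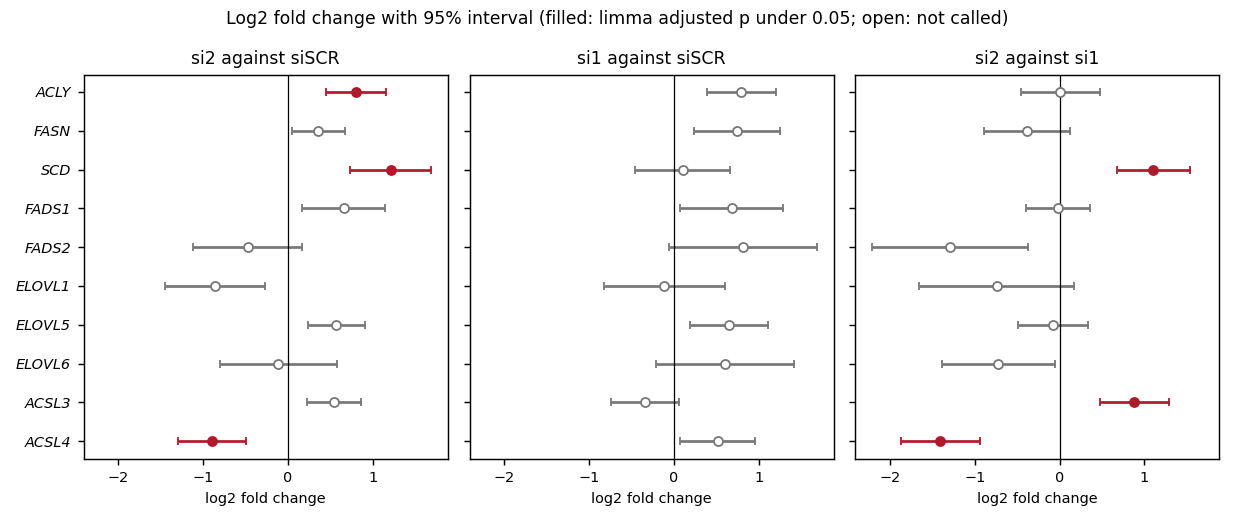
Log2 fold change of each gene (horizontal axis) with its 95% limma interval, for si2 against siSCR, si1 against siSCR and si2 against si1. Filled red points passed an adjusted p under 0.05 over all genes tested, which are ACLY, SCD and ACSL4 for si2 against siSCR, none for si1 against siSCR, and SCD, ACSL3 and ACSL4 for si2 against si1.

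ACLY (ENSG00000131473, chromosome 17 from 41866908 to 41930542 on GRCh38) makes cytosolic acetyl-CoA. Its normalized counts were 1428, 1420, 1982 and 1600 in si2 1 to 4 and 1335, 1841 and 1626 in si1 1 to 3, against 905, 926, 929 and 892 in siSCR 1 to 4. Both siRNA groups lay wholly above a narrow control range, and they overlapped each other. The log2 fold change came to 0.80 (SE 0.16; limma adjusted p = 0.0270) for si2 and 0.80 (SE 0.18; limma adjusted p = 0.0614) for si1, so ACLY passed in si2 and not in si1, and the difference between the siRNAs was 0.01 (95% interval -0.46 to 0.47; limma adjusted p = 0.992). For si1, ACLY passed without siSCR 1 (0.79; limma adjusted p = 0.0379) and did not without si1 2 (0.69; limma adjusted p = 0.116).

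FASN (ENSG00000169710, chromosome 17 from 82078333 to 82098332), the cytosolic fatty acid synthase, had 736, 790, 909 and 833 normalized counts in si2 and 1399, 798 and 1077 in si1, against 656, 614, 630 and 645 in siSCR. No siRNA library overlapped the controls, and the si1 libraries were widely spread. The log2 fold change came to 0.36 (SE 0.14; limma adjusted p = 0.199) for si2 and 0.74 (SE 0.22; limma adjusted p = 0.110) for si1, neither of which passed. The difference of si2 from si1 was -0.38 (95% interval -0.89 to 0.13), with -0.19 without si1 1 and -0.59 without si1 2. In the authors' deposited table FASN had an adjusted p of 0.00624 for si1 and 0.0843 for si2.

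SCD (ENSG00000099194, chromosome 10 from 100347124 to 100364834), the stearoyl-CoA desaturase that makes oleate and palmitoleate, separated the siRNAs. It had 846, 809, 1115 and 845 normalized counts in si2 and 414, 455 and 383 in si1, against 520, 371, 423 and 275 in siSCR. Every si2 library was above every other library, and si1 lay within the control range. SCD rose in si2 by a log2 fold change of 1.21 (SE 0.21; limma adjusted p = 0.0195), while in si1 it had 0.11 (SE 0.24; 95% interval -0.45 to 0.67; limma adjusted p = 0.818), with 0.25 without siSCR 1. Its level in si2 exceeded that in si1 by 1.10 on the log2 scale (SE 0.19; limma adjusted p = 0.0176).

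FADS1 (ENSG00000149485, chromosome 11 from 61799625 to 61829318), the desaturase of the last step to arachidonate, had 677, 588, 693 and 615 normalized counts in si2 and 679, 681 and 603 in si1, against 642, 362, 352 and 335 in siSCR. Replicate 1 of siSCR stood among the siRNA libraries, and siSCR 2 to 4 far below all of them. The log2 fold change came to 0.66 (SE 0.22; limma adjusted p = 0.138) for si2 and 0.68 (SE 0.26; limma adjusted p = 0.170) for si1, and neither passed. Without siSCR 1 both passed, at 0.88 for si2 (limma adjusted p = 0.00505) and 0.90 for si1 (limma adjusted p = 0.0200). The mitochondrial share of siSCR 1 moves with this value, and its part in the result was not tested beyond a fit with that share as a covariate, in which FADS1 passed for si2 alone.

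FADS2 (ENSG00000134824, chromosome 11 from 61792980 to 61867354), the desaturase of the first step, lies beside FADS1 on the opposite strand, and their exons overlap. Of the exon bases of FADS1 5.57%, and of those of FADS2 4.89%, lie under any other annotated gene. The largest overlap of each is with the other of this pair. Reads shared by FADS1 and FADS2 cannot be assigned to one of them unless strand was used, which is not given. FADS2 had 9.73, 20.1, 8.40 and 15.0 normalized counts in si2 and 17.6, 48.6 and 39.1 in si1, against 15.1, 16.0, 27.5 and 15.3 in siSCR. All groups overlapped. Its log2 fold change came to -0.47 (SE 0.29; limma adjusted p = 0.401) for si2 and 0.82 (SE 0.38; limma adjusted p = 0.232) for si1. Single libraries moved these values, to -0.28 for si2 without siSCR 3 and -0.30 without si2 3, and to 0.53 for si1 without si1 2 and 1.24 without si1 1. The difference of si2 from si1 was -1.29 (95% interval -2.21 to -0.37; limma adjusted p = 0.0938), which passed without si1 1 (-1.71; limma adjusted p = 0.0470).

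**Figure D3:**
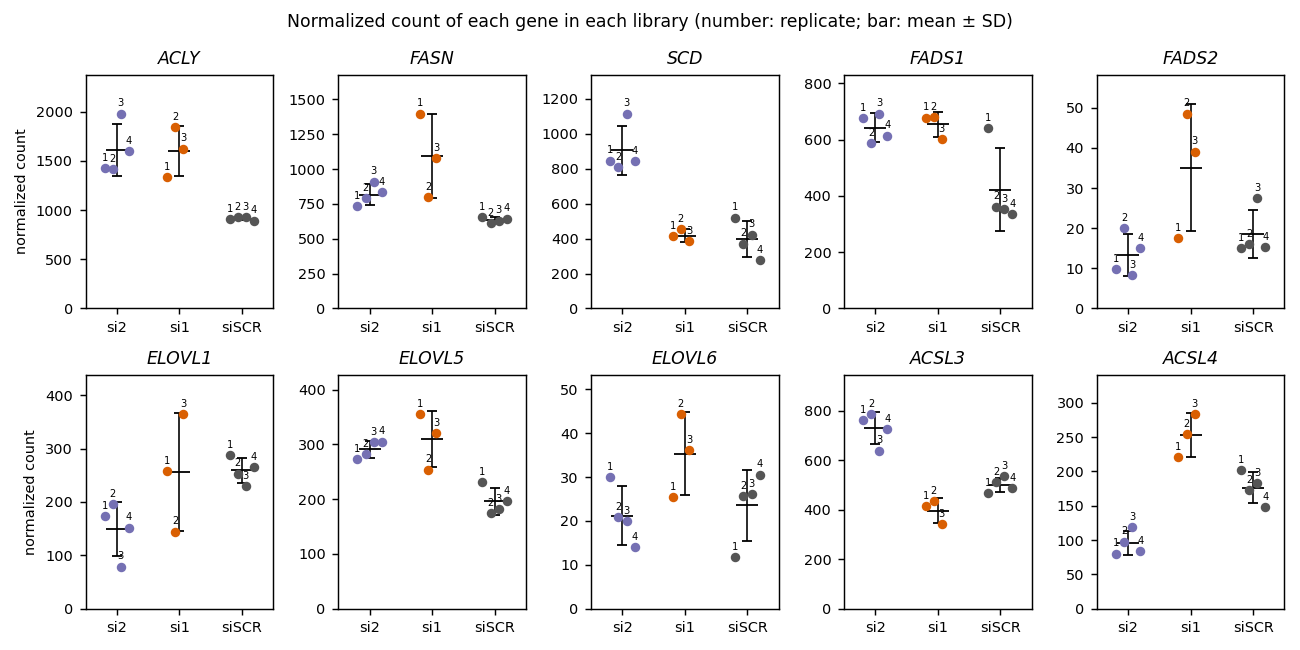
Normalized count (vertical axis, from 0) of each of the 10 genes in each library of si2, si1 and siSCR; numbers are replicates, and bars give the mean ± SD. ACLY and FASN lie above siSCR with both siRNAs, SCD and ACSL3 are highest in si2, ACSL4 is lowest in si2 and highest in si1, and FADS1 has siSCR 1 apart from siSCR 2 to 4.

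No elongase passed the test in any of the 3 comparisons. ELOVL5 (ENSG00000012660, chromosome 6 from 53267398 to 53349179), which lengthens polyunsaturated chains, had 272, 282, 304 and 305 normalized counts in si2 and 356, 254 and 320 in si1, against 231, 175, 182 and 197 in siSCR. Both siRNA groups were above the controls, and the log2 fold change came to 0.57 (SE 0.15; limma adjusted p = 0.0710) for si2 and 0.65 (SE 0.20; limma adjusted p = 0.113) for si1. Without siSCR 1 it passed for si2 (0.65; limma adjusted p = 0.0139), and for si1 it stood at 0.73 (limma adjusted p = 0.0504).

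ELOVL1 (ENSG00000066322, chromosome 1 from 43363397 to 43368074), an elongase of saturated and monounsaturated very long chains, had 173, 196, 78.8 and 152 normalized counts in si2 and 257, 144 and 365 in si1, against 287, 253, 230 and 266 in siSCR. The si2 libraries lay below the controls, and the si1 libraries spread on both sides of them. The log2 fold change came to -0.86 (SE 0.26; limma adjusted p = 0.113) for si2 and -0.11 (SE 0.31; limma adjusted p = 0.847) for si1. The value for si1 was 0.25 without si1 2, which held its lowest count. For si2, whose lowest count was in si2 3, the value ran from -1.01 to -0.58 with 1 library left out. It passed in none of those 8 fits. In the authors' deposited table ELOVL1 had an adjusted p of 0.0374 for si2.

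ELOVL6 (ENSG00000170522, chromosome 4 from 110045846 to 110199199), which extends palmitate, had 30.1, 20.9, 20.0 and 14.0 normalized counts in si2 and 25.5, 44.4 and 36.1 in si1, against 11.8, 25.6, 26.2 and 30.6 in siSCR. The groups overlapped, with siSCR 1 the lowest of all 11 libraries. Its log2 fold change came to -0.11 (SE 0.31; limma adjusted p = 0.882) for si2 and 0.61 (SE 0.35; limma adjusted p = 0.316) for si1. Without siSCR 1 the value was -0.40 for si2 and 0.32 for si1, and it was 0.14 for si1 without siSCR 1 and si1 2. The difference of si2 from si1 was -0.72 (95% interval -1.39 to -0.06; limma adjusted p = 0.166).

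ACSL4 and ACSL3, long-chain acyl-CoA synthetases, differed between si2 and si1 in opposite directions. ACSL4 (ENSG00000068366, chromosome X from 109624244 to 109733403) prefers arachidonate and other polyunsaturated acids and is known for its part in ferroptosis. It had 80.5, 97.9, 119 and 83.5 normalized counts in si2 and 220, 254 and 284 in si1, against 202, 173, 183 and 148 in siSCR. The 3 groups did not overlap, with si2 below and si1 above the controls. How many of all genes keep the 3 groups apart was not counted. ACSL4 fell in si2 by a log2 fold change of -0.89 (SE 0.18; limma adjusted p = 0.0282), and in si1 it had 0.52 (SE 0.19; 95% interval 0.08 to 0.96; limma adjusted p = 0.159). Its difference of si2 from si1 was -1.41 (SE 0.20; limma adjusted p = 0.0110), and this passed without any 1 library (limma adjusted p 0.0165 to 0.0492).

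ACSL3 (ENSG00000123983, chromosome 2 from 222860934 to 222944639), which acts at the endoplasmic reticulum and at forming lipid droplets, had 762, 788, 640 and 728 normalized counts in si2 and 414, 436 and 341 in si1, against 467, 511, 536 and 489 in siSCR. Again the 3 groups did not overlap, here with si2 above and si1 below the controls. The log2 fold change came to 0.54 (SE 0.14; limma adjusted p = 0.0751) for si2 and -0.34 (SE 0.17; limma adjusted p = 0.265) for si1, neither passing, while the difference of si2 from si1 did pass (0.88, SE 0.18; limma adjusted p = 0.0287). Without siSCR 1 the value for si2 passed (0.51; limma adjusted p = 0.0425).

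The ratio of ACSL4 to ACSL3 counts within a library was 0.106, 0.124, 0.186 and 0.115 in si2 and 0.533, 0.583 and 0.833 in si1, against 0.433, 0.339, 0.341 and 0.302 in siSCR. It was lowest in si2 and highest in si1 with no overlap, and it was chosen after the values were seen, so no test is given. Over the 11 libraries the log2 levels of ACSL4 and ACSL3 had a Pearson r of -0.96, a description over 3 groups that already differ. Between FASN and ELOVL5 r was 0.88, and between SCD and ACSL4 it was -0.71.

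**Figure D4:**
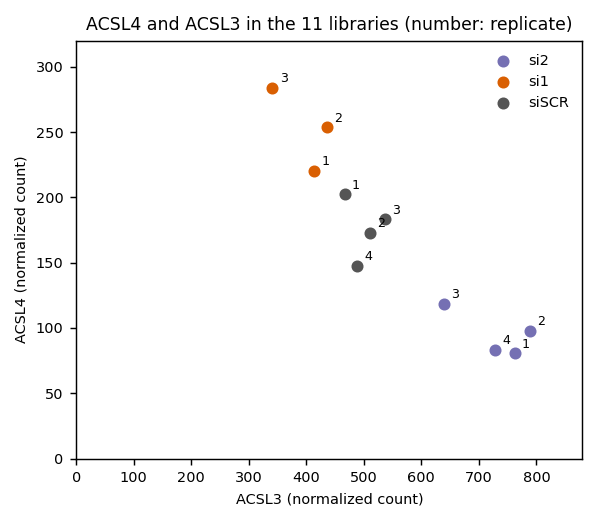
Normalized count of ACSL4 (vertical axis) against that of ACSL3 (horizontal axis) in the 11 libraries, numbered by replicate. The si2 libraries lie at the lower right, si1 at the upper left and siSCR between them.

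For si2 against siSCR, 6 members were called without siSCR 1 (ACLY, SCD, ACSL4, ACSL3, ELOVL5 and FADS1), against 14.4% of all genes in that fit. ACSL4 alone was called without si2 3 (1.37% of all genes called) and SCD alone without siSCR 3 (1.54%), against 3.12% with every library. None was called without si2 1, si2 2, si2 4, siSCR 2 or siSCR 4, where 0.843% to 0.972% of all genes were called. In those fits the 3 fold changes kept their sign, at 0.70 to 0.86 for ACLY, 1.05 to 1.35 for SCD and -1.004 to -0.82 for ACSL4 over all 8, with limma adjusted p from 0.0133 to 0.0882, 0.00407 to 0.0673 and 0.0174 to 0.100. For si2 against si1, ACSL4 alone was called without si1 3, si2 1, si2 2 or si2 4, where 1.16% to 3.92% of all genes were called. Without si1 1, where 4.51% were, SCD, ACSL4 and FADS2 were called and ACSL3 was not (limma adjusted p = 0.0541). For si1 against siSCR, ACLY and FADS1 were called without siSCR 1, against 13.5% of all genes, and ACLY, FASN, ELOVL5 and FADS1 without both siSCR 1 and si1 2, against 16.5%. In the authors' deposited tables the adjusted p was under 0.05 for ACLY, FASN and ELOVL5 with si1, against 9.81% of the genes of that fit, and for ACLY, SCD, ELOVL5, ACSL3, ACSL4 and ELOVL1 with si2, against 5.8%.

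Of 61 other genes of the pathway, 59 were in the tables, and ACACA and HSD17B8 are not analysed here. For si2 against siSCR, 46 passed the filter on low values, 3 rose and 1 fell, against 1.93% higher and 1.19% lower over all genes. Their median log2 fold change was 0.12, against -0.01 over all genes. INSIG1, which holds SREBP in the endoplasmic reticulum and is itself an SREBP target, had 239, 270, 359 and 287 normalized counts in si2, against 72.2, 92.9, 111 and 82.5 in siSCR. It rose by 1.68 (SE 0.19; limma adjusted p = 0.00363), and its groups did not overlap. ACSS2, which makes acetyl-CoA from acetate, had 16.8, 14.4, 20.0 and 21.8 in si2, against 4.20, 4.27, 7.85 and 10.2 in siSCR, and rose by 1.40 (SE 0.27; limma adjusted p = 0.0254). SREBF2, which encodes an SREBP, had 202, 224, 231 and 254 in si2, against 178, 96.1, 102 and 94.7 in siSCR, and rose by 0.99 (SE 0.22; limma adjusted p = 0.0396). OXSM, the condensing enzyme of mitochondrial fatty acid synthesis, fell by 1.45 on the log2 scale (limma adjusted p = 0.0249), at a low level, with 5.93 ± 2.44 in si2 and 17.7 ± 5.55 in siSCR (SD, n = 4 each). With 1 library left out, INSIG1 passed in all 8 fits, ACSS2 without siSCR 1, siSCR 3 or siSCR 4, OXSM without si2 4, siSCR 1 or siSCR 3, and SREBF2 without siSCR 1. ACSS2 met the filter on low values only through si2, and OXSM only through siSCR. With no filter on low values ACSS2, OXSM and SREBF2 did not pass (limma adjusted p = 0.0766, 0.0749 and 0.110), nor did ACSS2 and OXSM by limma-trend (0.0507 and 0.0503) or OXSM by voom (0.0585). In the authors' deposited table ACSS2 had 0.91 (adjusted p = 0.0585) and OXSM -0.91 (adjusted p = 0.0595).

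For si1 against siSCR, 48 of these genes passed the filter, 2 rose and 0 fell, against 0.789% higher and 0.932% lower over all genes. Their median log2 fold change was 0.22, against -0.03 over all genes. ACSS2 had 28.1, 43.0 and 31.6 normalized counts in si1, above all siSCR libraries, and rose by 2.26 (SE 0.33; limma adjusted p = 0.0318). It had 4 to 10 reads in each siSCR library and met the filter only through si1. Its value was 1.77 with pseudocount 5 and 1.73 in the authors' deposited table. INSIG1 had 249, 337 and 286 in si1 and rose by 1.69 (SE 0.21; limma adjusted p = 0.0318). With no filter neither ACSS2 nor INSIG1 passed (limma adjusted p = 0.0856 for each), when 0.0301% of all genes did. With the replicate number as a block, ACSS2 stood at 2.48, INSIG1 at 1.66 and AKR1A1 at -2.59, and none of them passed (limma adjusted p = 0.154 for each). With 1 library left out, ACSS2 and INSIG1 passed without siSCR 1 and in none of the other 6 fits (limma adjusted p up to 0.124 for each), and SREBF2 passed without siSCR 1 (limma adjusted p = 0.00787). In the other 6 fits 0 to 0.0372% of all genes passed, against 13.5% without siSCR 1. SREBF2 had 312, 279 and 275 in si1, all above siSCR (1.34, SE 0.26; limma adjusted p = 0.0511). SREBF1, which encodes the SREBP known for fatty acid genes, had 42.5, 65.8, 107 and 108 in si2 and 71.1, 87.4 and 75.1 in si1, against 60.4, 50.2, 61.5 and 47.9 in siSCR. Its log2 fold change came to 0.46 (limma adjusted p = 0.415) for si2 and 0.50 (limma adjusted p = 0.160) for si1, neither passing.

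Between the siRNAs, 47 of these genes were tested, 1 was higher and 3 were lower in si2 than in si1, against 3.71% higher and 3.02% lower over all genes, a share near that background. Their median log2 difference was -0.23, against 0.03 over all genes. DBI, the acyl-CoA binding protein, averaged 1802 ± 280 normalized counts in si2 (SD, n = 4) and 1045 ± 26.5 in si1 (SD, n = 3), a log2 difference of 0.77 (SE 0.18; limma adjusted p = 0.0438). PRKAB2, a regulatory subunit of the AMP-activated kinase that inhibits fatty acid synthesis, averaged 31.2 ± 9.32 in si2 and 97.8 ± 30.5 in si1 (-1.62, SE 0.29; limma adjusted p = 0.0206). OXSM (-1.43; limma adjusted p = 0.0283) and SLC27A5, a bile acyl-CoA synthetase (-2.15; limma adjusted p = 0.0198), were lower in si2, both at low counts. Both were below 10 in every si2 library and met the filter on low values only through si1. With no filter neither passed (limma adjusted p = 0.0698 for OXSM and 0.0511 for SLC27A5), nor did DBI (0.112) or PRKAB2 (0.0569), when 1.37% of all genes did. With 1 library left out, DBI passed in none of 7 fits (limma adjusted p of at least 0.0614), OXSM in 3, SLC27A5 in 4 and PRKAB2 in 5. INSIG1 differed by -0.01 (95% interval -0.49 to 0.46) and SREBF2 by -0.34 (95% interval -0.73 to 0.04).

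The genes whose log2 levels followed the members called against siSCR most closely over the 11 libraries were named among 4939 genes with a mean normalized count of at least 100. For ACLY they were PPIA, INSIG1 and RTN4 (Pearson r 0.98, 0.97 and 0.96), for SCD TFRC, TNFRSF10D and RRAS (0.97, 0.96 and 0.95) and for ACSL4 CREB5, GATS and ATXN2 (0.97, 0.95 and 0.95). All points share the group differences described above. The 10 genes took 0.161%, 0.166%, 0.189% and 0.169% of the reads of si2 1 to 4 and 0.1501%, 0.163% and 0.160% of those of si1, against 0.122%, 0.113%, 0.118% and 0.109% of those of siSCR. Both siRNA groups were above the controls. The 95% Wilson interval, which covers counting error alone, was 0.146% to 0.154% in si1 1 and 0.119% to 0.126% in siSCR 1.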

How the data were processed

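Total RNA of 11 libraries was sequenced. Per the submitters' processing notes, the authors used cutadapt, FastQC, STAR, HTSeq and DESeq2 with GRCh38. The sources used here give neither tool versions nor strandedness. In the deposited tables each library's column held log2 values, the log2 of a normalized count plus 1, beside the mean normalized signal, a log2 fold change and p-values by the authors. The log2 values were undone to give normalized counts, of which 100% were whole reads within 0.01 read once rescaled; the siSCR columns of the tables were equal. Tests used limma 3.58.1 in R 4.3.3 on log2(normalized count + 1), with only the compared groups in each fit, no covariate and Benjamini-Hochberg adjustment over all genes tested, called under 0.05. A gene entered with a normalized count of at least 10 in as many of the compared libraries as the smaller group holds. Fold changes on this scale understate those of low genes. The procedure was tested on simulated data, and Python 3.11.15, SciPy 1.17.1 and pandas 2.3.3 prepared the tables. Intervals on shares cover counting error only, since no molecular identifiers are described. Named genes are the 10 members, AKR1A1, called pathway genes (up to 4 per comparison and direction), SREBF1, SREBF2, INSIG1, and the 3 genes most like each member called against siSCR. Members and lists were chosen with earlier results of these data known. Libraries of si1 and siSCR with the same number deviated together (r = 0.47, 0.13 and 0.22 over 8676 genes). Some with other numbers did so too, as si1 2 with siSCR 3 (r = 0.18) and si1 3 with siSCR 4 (r = 0.17). It is therefore not known whether the numbers pair the libraries. The reported si1 fits are unpaired, and with the replicate number as a block 0 genes passed for si1 against siSCR. Gene positions come from GENCODE and promoters from RefSeq, matched by symbol. Alternatives were an upper-quartile rescaling, other minimums and pseudocounts, limma-trend, one fit of all libraries, the replicate block, the mitochondrial share as covariate, voom on recovered reads and leaving out each library. Leaving out siSCR 1 and si1 2 together was chosen after seeing the data.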

Additional observations from a re-analysis of the deposited data

Results flagged for a closer look

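Single libraries stood far from the rest of their group for 5 of 38 gene and group pairs examined, where chance gives about 1 in 20 for a single pair. Only si2 and siSCR were examined, and si1 (n = 3) was not. The pairs share libraries, so their number is not set against chance. SCD in si2 3 was 1115, against 809 to 846 in the other si2 libraries. FADS1 in siSCR 1 was 642 and SREBF2 in siSCR 1 was 178, against 335 to 362 and 94.7 to 102 in the other siSCR libraries. FADS2 in siSCR 3 was 27.5, against 15.1 to 16.0, and SLC27A5 in si2 3 was 7.35, against 2.41 to 2.65, both at low counts.

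The siRNAs differed from each other by the limma test, as the log2 difference of si2 minus si1, for SCD (1.10), ACSL3 (0.88), ACSL4 (-1.41), OXSM (-1.43), DBI (0.77), SLC27A5 (-2.15) and PRKAB2 (-1.62). Of these, OXSM and SLC27A5 met the filter on low values only through si1. The mitochondrial share was 4.59% to 5.12% in si2 and 6.57% to 11.1% in si1. With it as a covariate the differences were 0.998 for SCD, 0.92 for ACSL3, -1.65 for ACSL4, -1.43 for OXSM, 0.76 for DBI, -1.60 for SLC27A5 and -2.20 for PRKAB2, none of them passing (limma adjusted p = 0.116, 0.124, 0.0588, 0.149, 0.184, 0.177 and 0.0594). Over all genes 1.6% passed in that fit, against 6.74% without the covariate. The share and the siRNA cannot be told apart, since the groups do not overlap in it.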

How the results depend on the processing

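For si1 against siSCR, members called numbered 1 with a minimum of 50, 2 by limma-trend, 1 with pseudocount 5, 3 when all 11 libraries shared a fit, 1 with the mitochondrial covariate (ELOVL6), 2 by voom, 3 in the authors' deposited table and 4 without siSCR 1 and si1 2, against 0 as reported. Pathway genes numbered 0 with no filter, 5, 6, 5, 9, 4 by voom, 7 in the deposited table, 9 without both libraries and 0 under the replicate block, against 2. Over all genes limma called 7.82% with the minimum of 50, 6.77% by limma-trend, 3.94% with pseudocount 5, 10.8% in the shared fit, 2.26% with the covariate, 5.53% by voom, 16.5% without both libraries, 0.0301% with no filter and 0 under the block (2056 at an unadjusted p under 0.05), against 1.72%. For si2 against siSCR, members numbered 0 with no filter, 5 with a minimum of 50, 5 by limma-trend, 1 under the replicate block, 6 with the covariate, 5 by voom and 6 in the deposited table, against 3; pathway genes numbered 1 with no filter and 8 with the covariate, against 4. Over all genes these settings called 0.628%, 5.97%, 4.7%, 1.71%, 13.1% and 4.52% in the order from no filter to voom, against 3.12%. Under the block SCD passed (limma adjusted p = 0.0434), ACLY had 0.80 (0.0656) and ACSL4 -0.89 (0.0637). For si2 against si1, members numbered 1 with no filter, 0 under the replicate block and 0 with the covariate, against 3; pathway genes numbered 0, 0 and 2 there and 7 with all libraries, against 4. Over all genes they were 1.37%, 0.0574%, 1.6% and 7.56%, against 6.74%. In these last comparisons the same-numbered libraries did not all deviate together (r -0.05 to 0.24 for si2 against siSCR, -0.04 to 0.14 for si2 against si1). Leaving out each library gave 0 to 2 members and 0 to 8 pathway genes for si1, 0 to 6 and 1 to 9 for si2, and 1 to 3 and 0 to 5 between them. Over all genes these fits called 0 to 13.5%, 0.843% to 14.4% and 1.16% to 7.54%.

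Under the alternatives run, the signs that turned belonged to genes not called in that comparison. For si1 against siSCR, SCD was -0.058 under the replicate block, -0.015 with the covariate and -0.058 to 0.25 with a library left out. ELOVL1 was 0.30 without siSCR 1 and si1 2, and -0.42 to 0.25 with a library left out. OXSM was 0.032 by upper quartile, 0.069 with the covariate, 0.033 by voom and -0.13 to 0.17 with a library left out. For si2 against siSCR, ELOVL6 ran from -0.40 to 0.061 and PRKAB2 from -0.23 to 0.19. For si2 against si1, ACLY was -0.026 by upper quartile, -0.40 with the covariate and -0.12 to 0.11 with a library left out. FASN was 0.18 and ELOVL5 0.24 with the covariate, ELOVL5 ran from -0.22 to 0.027, and FADS1 from -0.083 to 0.017. AKR1A1 was -0.015 by upper quartile, -0.10 by voom and -0.43 to 0.45 with a library left out, INSIG1 ran from -0.12 to 0.10 and SREBF1 from -0.21 to 0.23. The causes were not tested. Depth limits ELOVL6 and FADS2, with at most 34 and 35 reads a library.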
